A study of Homo sapiens with 10 samples.

Results

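The genes described here encode the cyclooxygenases PTGS1 and PTGS2, 5 enzymes that turn their product into prostacyclin, thromboxane or prostaglandin E2 (PTGIS, TBXAS1, PTGES, PTGES2 and PTGES3), and 3 prostanoid receptors (PTGER2, PTGER4 and PTGIR). They were chosen by name, through the Ensembl identifiers that GENCODE 44 pairs with these symbols, and are 10 of the 60448 genes counted. Human endothelial cells of the lines EA.hy926 and HMEC-1 were compared without treatment by RNA sequencing of poly(A) RNA, with 5 libraries from each line. EA.hy926 is a hybrid of an umbilical vein endothelial cell with the lung epithelial carcinoma line A549, and it was grown in Advanced DMEM with fetal bovine serum. HMEC-1 is a line of dermal microvascular endothelial cells that carries the SV40 large T antigen, and it was grown in MCDB 131 with a higher percentage of fetal bovine serum than EA.hy926, epidermal growth factor and hydrocortisone, a glucocorticoid. Both were labelled wild type, and both media also held L-glutamine, gentamicin and penicillin. Cells were detached with trypsin before RNA extraction. Each vessel type is represented by a single line, and line, medium, serum and added hormone cannot be told apart in any comparison below. Library totals were 34846046 to 39899324 counts in EA.hy926 against 33391640 to 43877224 counts in HMEC-1, so that 3 counts correspond to between 0.0651 and 0.0904 CPM, the count relative to the scaled library size.

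Prostanoids are short-lived lipid mediators made from arachidonic acid, which phospholipases release from membranes. The cyclooxygenases convert arachidonic acid to prostaglandin H2, PTGS1 usually being constitutive and PTGS2 inducible by cytokines, growth factors and shear stress, and the terminal synthases then decide which prostanoid is formed. In the vessel wall, endothelial prostacyclin relaxes smooth muscle and restrains platelets, thromboxane A2 made mainly by platelets does the opposite, and prostaglandin E2 acts through several receptors with different signalling.

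Promoter sequence is shown for PTGS1, PTGS2, PTGES and PTGER2, the genes of the set whose read counts differed most between the lines. Each sequence is the 250 bases before the RefSeq start on build GRCh38.p14, written 5′ to 3′ on the strand of the gene. Capitals mark matches on either strand to TATAAA (the TATA box), GGGCGG (the GC box) and CGTCA (the core of a cyclic AMP response element). The fourth motif searched, the E-box CACGTG, had no match in these 4 windows. PTGS1 lies at chr9:122370283-122370532 on the plus strand, PTGS2 at chr1:186680424-186680673 on the minus strand, PTGES at chr9:129753043-129753292 on the minus strand and PTGER2 at chr14:52314062-52314311 on the plus strand.
PTGS1: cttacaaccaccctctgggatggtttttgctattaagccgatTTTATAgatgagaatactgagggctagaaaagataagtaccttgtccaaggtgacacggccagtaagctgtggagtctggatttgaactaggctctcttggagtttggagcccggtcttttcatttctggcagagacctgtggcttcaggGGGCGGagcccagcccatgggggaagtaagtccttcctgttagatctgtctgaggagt
PTGS2: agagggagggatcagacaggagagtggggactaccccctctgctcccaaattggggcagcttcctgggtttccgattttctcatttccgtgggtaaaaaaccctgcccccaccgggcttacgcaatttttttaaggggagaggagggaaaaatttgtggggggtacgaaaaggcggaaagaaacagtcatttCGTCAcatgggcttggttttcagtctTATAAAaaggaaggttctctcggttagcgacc
PTGES: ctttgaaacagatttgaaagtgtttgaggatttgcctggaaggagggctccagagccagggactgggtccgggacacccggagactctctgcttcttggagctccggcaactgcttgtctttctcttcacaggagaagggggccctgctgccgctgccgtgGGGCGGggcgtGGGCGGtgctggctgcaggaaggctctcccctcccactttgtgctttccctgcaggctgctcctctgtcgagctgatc
PTGER2: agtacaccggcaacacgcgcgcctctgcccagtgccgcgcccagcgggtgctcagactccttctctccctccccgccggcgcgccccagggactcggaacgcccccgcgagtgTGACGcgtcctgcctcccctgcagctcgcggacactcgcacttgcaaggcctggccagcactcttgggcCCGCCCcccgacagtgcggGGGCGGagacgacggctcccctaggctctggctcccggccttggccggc
The PTGS2 window held TATAAA beginning 32 bases before the start and CGTCA beginning 58 bases before it, both in the gene's direction. The PTGS1 window held TATAAA on the opposite strand 208 bases before the start and GGGCGG 58 bases before it. PTGES had GGGCGG at 89 and 78 bases before its start and no TATAAA. PTGER2 had GGGCGG at 68 and 49 bases and CGTCA at 137 bases. Among 35116 RefSeq promoters of the same length, TATAAA occurred in 10.7%, GGGCGG in 42.6%, CGTCA in 21.2% and CACGTG in 6.34%. The dinucleotide CG occurred 28 times in the PTGER2 window, 9 times in each of PTGS2 and PTGES and 4 times in PTGS1, against a median of 11 over all promoters. A match is a string of letters, and binding was not measured here. RefSeq promoters were matched for 8 of the 10 genes, and those of PTGIS and PTGIR were not used here.

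EA.hy926 carried far more cyclooxygenase mRNA than HMEC-1, whereas HMEC-1 carried more mRNA of the inducible prostaglandin E synthase PTGES and was the line in which the PTGER2 receptor was detected. In the edgeR quasi-likelihood test over 16310 genes, 7 of the 10 genes had an adjusted p under 0.05 together with an absolute log2 fold change (log2FC) over 1. PTGS1, PTGS2, PTGIS, TBXAS1 and PTGIR were higher in EA.hy926, and PTGES and PTGER2 were lower. Of all genes tested, 35.5% passed both thresholds, 19.1% as higher and 16.4% as lower in EA.hy926. All 10 had an adjusted p under 0.05, 8 higher and 2 lower, beside 85.8% of all genes tested (42.6% higher and 43.3% lower). CPM values of the lines did not overlap for any of the 10, beside 77.4% of all genes tested (38.3% with all EA.hy926 libraries higher, 39.2% with all lower). With the adjusted p this common, the size of each difference says more about a gene than its p. The median log2FC of the 10 genes was 0.89 and their median absolute log2FC was 2.65, while over all genes tested these were -0.01 and 0.65. PTGS1, PTGS2, PTGES and PTGER2 entered the test through the line in which they were high, since each fell below the filter of 0.258 CPM in at least 1 library of the other line. The medians of the 10 genes include these genes, and the value of PTGER2 was fitted against no counts in EA.hy926. They are given as a description. In bulk RNA, fewer cells expressing a gene and less of its RNA per cell cannot be told apart.

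**Figure D1:**
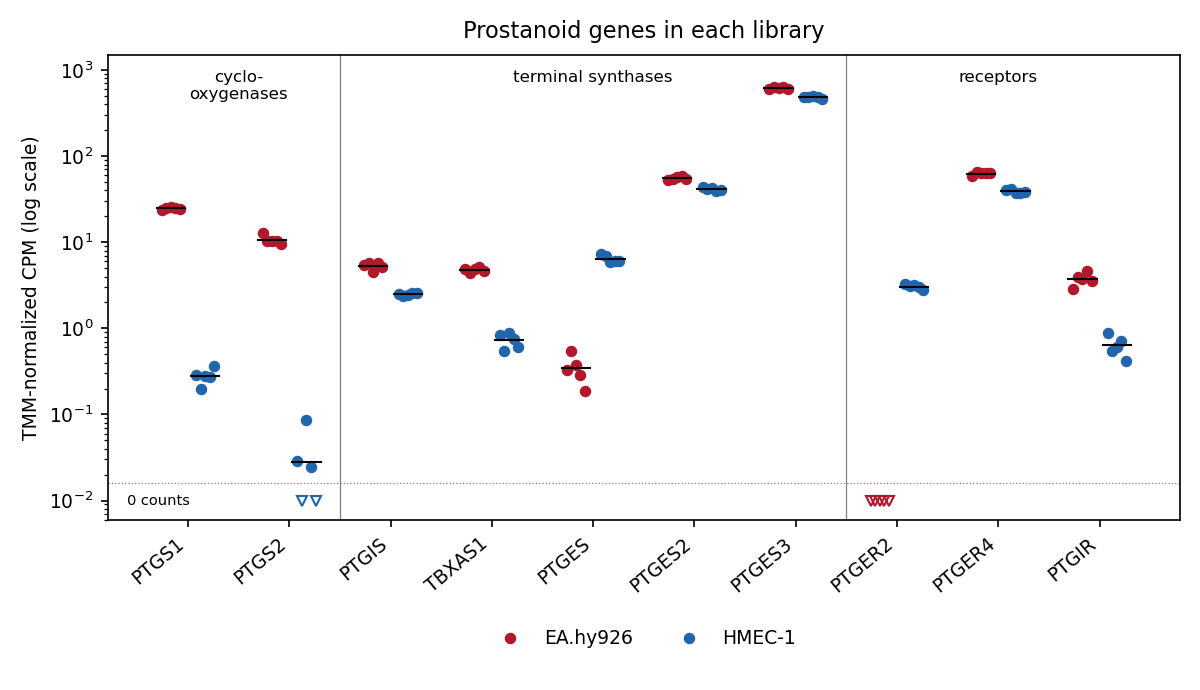
Level of each gene in every library in CPM on a log axis, with dots for single libraries of EA.hy926 and HMEC-1, black bars for the mean of 5 libraries and open triangles below the dotted line for libraries with 0 counts. The lines are furthest apart for PTGS1, PTGS2, PTGES and PTGER2 and close together for PTGES2 and PTGES3.

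Both cyclooxygenase genes were well counted in every EA.hy926 library. In HMEC-1, PTGS1 had few counts and PTGS2 was close to the detection limit. PTGS1 (ENSG00000095303, GRCh38 chr9:122370530-122395703, plus strand) had 873, 839, 900, 951 and 894 counts in EA.hy926 replicates 1 to 5 and 10, 8, 13, 11 and 14 counts in HMEC-1 replicates 1 to 5. The lowest EA.hy926 library therefore lay far above the highest HMEC-1 library. In CPM these are 24.7 ± 0.821 (SD, n = 5) and 0.280 ± 0.0605 (SD, n = 5). PTGS1 was higher in EA.hy926 by a log2FC of 6.45 (SE 0.092; edgeR adjusted p = 1.4e-23), an 87.5-fold difference.

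PTGS2 (ENSG00000073756, GRCh38 chr1:186671791-186680922, minus strand) had 469, 341, 360, 401 and 355 counts in the EA.hy926 libraries and 1, 0, 4, 1 and 0 counts in the HMEC-1 libraries. EA.hy926 replicate 1 was the highest of its line, and HMEC-1 replicate 3 held most of the few HMEC-1 reads. The CPM was 10.6 ± 1.20 (SD, n = 5) in EA.hy926 against 0.0280 ± 0.0355 (SD, n = 5) in HMEC-1, the latter below what 3 counts give. The ratio of the pooled rates was 357, with an exact 95% interval of 164 to 974 that covers counting error only. The fitted log2FC was 8.33 (SE 0.23; edgeR adjusted p = 9.5e-19) and moved to 9.35 without HMEC-1 replicate 3, so its size rests on a handful of reads. An antisense RNA at the PTGS2 promoter, PACERR, overlaps 3.99% of the exonic bases of PTGS2, and its own counts were 11, 2, 1, 3 and 5 in EA.hy926, with none in HMEC-1.

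PTGS1 was the more abundant cyclooxygenase transcript in EA.hy926. Per length of exon, in RPKM (CPM divided by the exon length in kilobases), PTGS1 stood at 4.27 and PTGS2 at 1.94 in that line. The PTGS2 share of their sum was 36.2%, 30.0%, 29.7%, 30.8% and 29.5% in EA.hy926 replicates 1 to 5, a mean of 31.2% ± 2.80 (SD, n = 5). Replicate 1 was again the highest, and the other 4 libraries lay close together. The mean share was 31.5% when the longest transcript was used for length. The summed level of both was 6.21 ± 0.185 RPKM in EA.hy926 against 0.0535 ± 0.0123 RPKM in HMEC-1 (SD, n = 5 each). In HMEC-1 the PTGS2 share ranged from 0% to 24.5%, on so few reads that its size could not be resolved at this depth. PTGS1 nevertheless stood above PTGS2 in every HMEC-1 library.

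**Figure D2:**
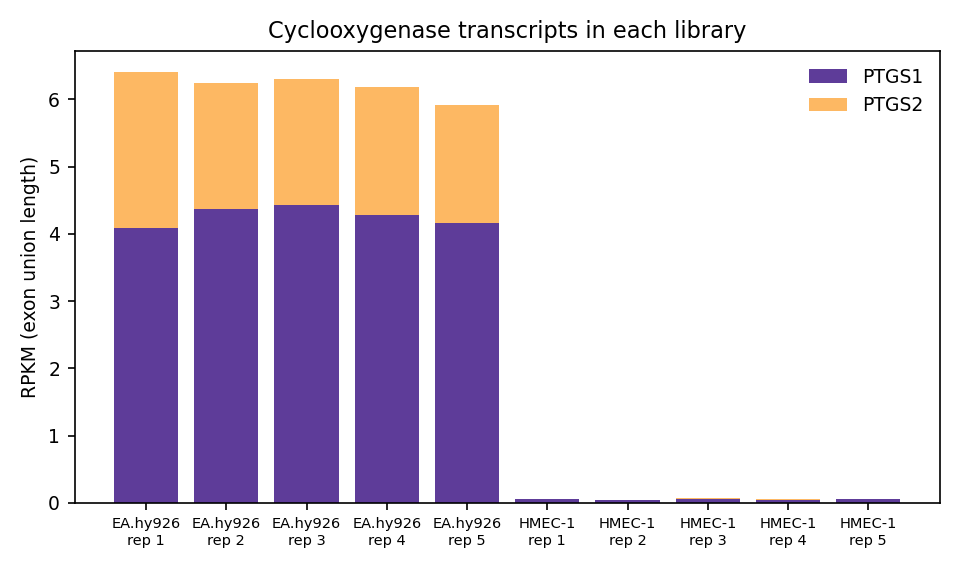
Stacked bars of PTGS1 and PTGS2 levels in RPKM in each library of EA.hy926 and HMEC-1, with 1 bar per library and an axis that starts at 0. PTGS1 makes up the larger part of every EA.hy926 bar, and the HMEC-1 bars are barely above the axis.

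The synthases of prostacyclin and thromboxane were both higher in EA.hy926. PTGIS, prostacyclin synthase (ENSG00000124212, GRCh38 chr20:49503874-49568137, minus strand), had 201, 190, 160, 221 and 192 counts in EA.hy926 against 87, 98, 111, 105 and 99 in HMEC-1. The mean CPM was 5.33 ± 0.492 in EA.hy926 against 2.49 ± 0.0898 in HMEC-1 (SD, n = 5 each), a log2FC of 1.10 (SE 0.093; edgeR adjusted p = 4.0e-10). This lies just past the fold threshold, and PTGIS no longer passed it when libraries were scaled by their totals alone (log2FC 0.96). TBXAS1, thromboxane A synthase (ENSG00000059377, GRCh38 chr7:139777051-140020325, plus strand), had 181, 145, 171, 199 and 174 counts in EA.hy926 against 29, 22, 41, 31 and 23 in HMEC-1. All EA.hy926 libraries were above all HMEC-1 libraries, at 4.80 ± 0.299 and 0.724 ± 0.149 CPM (SD, n = 5 each). TBXAS1 was higher by a log2FC of 2.72 (SE 0.13; edgeR adjusted p = 2.4e-14), a 6.60-fold difference.

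The prostaglandin E synthases split. PTGES, the inducible membrane enzyme that is often coupled to PTGS2 (ENSG00000148344, GRCh38 chr9:129738331-129753042, minus strand), had 12, 18, 13, 11 and 7 counts in EA.hy926 against 255, 282, 271, 250 and 233 in HMEC-1. It was thus low in the line with PTGS2 and higher in the line where PTGS2 was barely detected. The mean CPM was 0.342 ± 0.130 against 6.46 ± 0.60 (SD, n = 5 each), a log2FC of -4.24 (SE 0.16; edgeR adjusted p = 2.9e-16) or 18.9-fold more in HMEC-1. PTGES2, another membrane-associated prostaglandin E synthase (ENSG00000148334, GRCh38 chr9:128120693-128128462, minus strand), had 1797 to 2242 counts in EA.hy926 with a median of 2021, and 1527 to 1947 in HMEC-1 with a median of 1599. Scaled to 55.7 ± 2.17 and 41.4 ± 2.01 CPM (SD, n = 5 each), the lines did not overlap, and PTGES2 was higher in EA.hy926 by a log2FC of 0.43 (SE 0.037; edgeR adjusted p = 5.7e-10), under the fold threshold. PTGES3, the cytosolic enzyme also known as the HSP90 co-chaperone p23 (ENSG00000110958, GRCh38 chr12:56663341-56688408, minus strand), had 21292 to 24281 counts in EA.hy926 against 16853 to 23069 in HMEC-1, with medians of 22409 and 19721. Its CPM was 621 ± 16.0 against 483 ± 12.6 (SD, n = 5 each), a log2FC of 0.36 (SE 0.025; edgeR adjusted p = 1.6e-11). Reads of PTGES3 may be shared with its processed copies. The most abundant of these, PTGES3P1, stood at 7.67 ± 0.946 and 7.03 ± 0.504 CPM in EA.hy926 and HMEC-1 (SD, n = 5 each).

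Of the 3 receptors, all known to signal mainly through the stimulatory G protein to cyclic AMP, 1 was higher in EA.hy926 past both thresholds, 1 was lower and 1 changed by less than the fold threshold. PTGER2, the EP2 receptor of prostaglandin E2 (ENSG00000125384, GRCh38 chr14:52314305-52328598, plus strand), had 0 counts in all 5 EA.hy926 libraries and 114, 126, 146, 122 and 106 counts in HMEC-1. In HMEC-1 this is 3.05 ± 0.184 CPM (SD, n = 5), at least 33.8-fold higher than what 3 counts in an EA.hy926 library would give (edgeR adjusted p = 6.1e-14). PTGER2 was not detectable in EA.hy926 at this depth. PTGER4, the EP4 receptor (ENSG00000171522, GRCh38 chr5:40679915-40693735, plus strand), had 2177, 2157, 2240, 2420 and 2340 counts in EA.hy926 against 1405, 1696, 1742, 1538 and 1467 in HMEC-1. It was the most abundant receptor of both lines, at 62.7 ± 2.28 and 39.1 ± 1.67 CPM (SD, n = 5 each), with a log2FC of 0.68 (SE 0.035; edgeR adjusted p = 7.5e-14). PTGIR, the prostacyclin receptor (ENSG00000160013, GRCh38 chr19:46620468-46625089, minus strand), had 106, 132, 130, 178 and 131 counts in EA.hy926 against 31, 22, 28, 29 and 16 in HMEC-1. EA.hy926 replicate 4 was the highest and replicate 1 the lowest of their line, and both were above every HMEC-1 library. The mean CPM was 3.74 ± 0.643 against 0.632 ± 0.176 (SD, n = 5 each), and PTGIR was higher by a log2FC of 2.57 (SE 0.17; edgeR adjusted p = 8.0e-12).

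**Figure D3:**
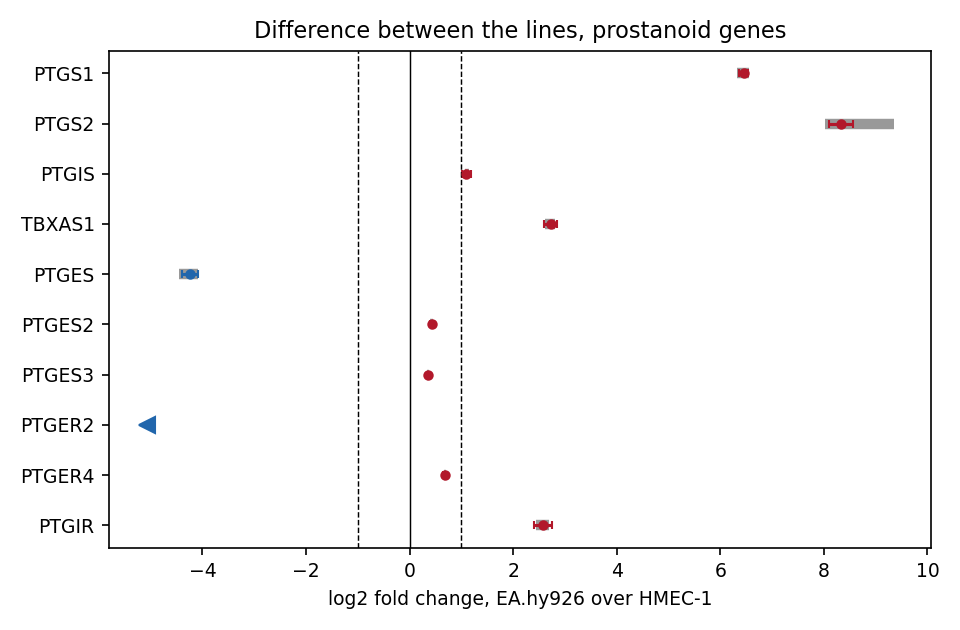
Log2 fold change of each gene between the lines, positive where EA.hy926 was higher, with bars for the standard error and grey bands for the range over the 10 fits that each left out 1 library; dashed lines mark a log2FC of 1 and -1. The triangle for PTGER2 marks a bound against 3 counts, and the band of PTGS2 is the widest, from 8.02 to 9.35.

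Per length of exon union, PTGES3, PTGER4 and PTGES2 were, in this order, the most abundant transcripts of the set in both lines, at 183, 17.7 and 9.15 RPKM in EA.hy926 against 142, 11.03 and 6.81 RPKM in HMEC-1. Below them the order differed between the lines. In EA.hy926, PTGS1 (4.27 RPKM) and PTGS2 (1.94 RPKM) came next, followed by PTGIR (1.06 RPKM), PTGIS (0.957 RPKM) and TBXAS1 (0.777 RPKM), and then PTGES (0.181 RPKM) and PTGER2 at 0. The library ranges of PTGIR and PTGIS overlapped, as did those of PTGIS and TBXAS1. In HMEC-1, PTGES (3.42 RPKM) and PTGER2 (1.24 RPKM) took the places after PTGES2, followed by PTGIS (0.447 RPKM), PTGIR (0.180 RPKM) and TBXAS1 (0.117 RPKM), with PTGS1 (0.0484 RPKM) and PTGS2 (0.00510 RPKM) last. Of these neighbours only PTGIR and TBXAS1 overlapped in HMEC-1. By longest transcript, PTGES2 (11.9 RPKM) stood above PTGER4 (11.4 RPKM) in HMEC-1. The order among PTGIR, PTGIS and TBXAS1 also depended on the length used, since TBXAS1 stood at 2.20 RPKM and PTGIR at 1.80 RPKM in EA.hy926 when the longest transcript was taken.

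The label of both lines, endothelial cells, was set against marker genes. PECAM1, CDH5 and VWF, which define endothelial cells, were counted in every library, with at least 8543, 15426 and 808 counts in the lowest library. All 14 endothelial markers were tested, of which 7 were higher in EA.hy926 past both thresholds, ERG only just (log2FC 1.01), and 2 lower. Over all genes tested, 35.5% passed both thresholds, 19.1% as higher and 16.4% as lower in EA.hy926. The same shares stand beside the counts of the other marker lists. PECAM1 was higher by a log2FC of 2.68 (SE 0.048), CDH5 by 1.52 (SE 0.030), VWF by 1.36 (SE 0.076) and ENG, the most abundant per length in both lines, by 1.76 (SE 0.027). The lower pair were CLDN5 (log2FC -4.27) and EMCN, which had 0 to 2 counts in EA.hy926 against 678 to 844 in HMEC-1. The summed level of these markers was 6171.7 to 6901.9 CPM in EA.hy926 against 2252.8 to 2316.9 CPM in HMEC-1.

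Of 11 epithelial markers, of interest because of the A549 parent, 8 were tested, and past both thresholds 2 were higher in EA.hy926 (EPCAM and KRT8) and 3 lower (CLDN4, CLDN7 and KRT19). With the adjusted p alone, 4 were higher and 3 lower, beside 85.8% of all genes tested (42.6% higher and 43.3% lower). EPCAM had 25 to 40 counts in EA.hy926 against 4 to 22 in HMEC-1, while CDH1 had 0 counts in every library except HMEC-1 replicate 2, which had 1. The summed epithelial level was 1276, 1316, 1289, 1389 and 1388 CPM in EA.hy926 against 446, 492, 429, 449 and 435 CPM in HMEC-1, and KRT7 was the most abundant gene of this list. Their part in the higher PTGS1 and PTGS2 of EA.hy926 was not tested. Platelets and macrophages are known sources of PTGS1 and TBXAS1. The platelet genes PF4, PPBP and GP9 had 0 counts in all 10 libraries, and the summed level of the 5 platelet markers was 1.41, 1.39, 1.31, 1.64 and 1.51 CPM in EA.hy926 against 1.45, 1.47, 1.95, 1.42 and 1.47 CPM in HMEC-1. It came from GP1BA, at 1.03 and 0.724 CPM, and ITGA2B, at 0.424 and 0.829 CPM in EA.hy926 and HMEC-1. Of the 5 macrophage markers, CD163 had 0 counts throughout. CD14, the only one tested, was lower in EA.hy926, with 0 to 4 counts against 17 to 26. The other 3 leaned the opposite way on few reads, with 2 to 14 against 3 to 6 counts per library for CSF1R, 0 to 7 against 0 to 1 for CD68 and 2 to 6 against 0 to 1 for PTPRC. Exons of other genes cover 85.6% of CD68, so its reads may belong to those genes. Of the 8 fibroblast and mural markers, 5 were tested and passed both thresholds, of which 2 were higher in EA.hy926 (RGS5 with a log2FC of 6.41, and ACTA2 with 2.68) and 3 lower (PDGFRB with -4.64, COL1A1 and COL3A1), and DCN and LUM had 0 counts. Other annotated exons cover 36.2% of ACTA2. COL1A1, a fibrillar collagen chain, had 7 to 15 counts in EA.hy926 against 12634 to 16454 in HMEC-1.

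The rest of the prostanoid pathway was examined in 9 lists holding 76 genes, of which 55 were tested. Of these, 33 passed both thresholds, 14 higher and 19 lower in EA.hy926, beside the 35.5% of all genes tested. Of the 55, 45 passed the filter in both lines, and the other 10 (PLA2G4A, FAAH, GSTM2, PTGER1, PTGFR, ALOX5AP, ALOXE3, EPHX2, ADCY1 and ADCY2) entered through the line in which they were high, so the count is a description. With the adjusted p alone, 18 were higher, 33 lower and 4 did not pass, beside 85.8% of all genes tested (42.6% higher and 43.3% lower). The median log2FC of the 55 was -0.26 against -0.01 over all genes tested. These shares and the 35.5% past both thresholds also stand beside the counts of each pathway list below. Ahead of the cyclooxygenases, 5 of 6 tested genes of arachidonate release passed both thresholds, 2 higher and 3 lower in EA.hy926. PLA2G4A, the calcium-dependent cytosolic phospholipase A2 that supplies both cyclooxygenases, had 904, 778, 875, 860 and 887 counts in EA.hy926 against 0, 1, 8, 3 and 2 in HMEC-1. The libraries thus split as they did for PTGS1 and PTGS2, and the ratio of pooled rates was 342, with an exact 95% interval of 203 to 626. Its log2FC of 8.35 (SE 0.15; edgeR adjusted p = 1.1e-21) moved to 9.13 without HMEC-1 replicate 3. PLA2G4A lies on chromosome 1, as PTGS2 does, at chr1:186828949-186988981 (GRCh38). The calcium-independent phospholipase gene PLA2G6 was higher by 1.21, while MGLL, which releases arachidonate from 2-arachidonoylglycerol had a log2FC of -1.86, PLA2G4C -1.42 and FAAH -1.02, the last losing its call without EA.hy926 replicate 1 (-0.87) and without HMEC-1 replicate 2 or 4. Per length, MGLL was the most abundant of the list in HMEC-1 at 17.5 RPKM, while in EA.hy926 the order turned with the length used, PLA2G4A standing at 8.27 RPKM and MGLL at 4.82 RPKM by exon union but 12.8 RPKM by longest transcript. Of the 7 tested genes that return arachidonate to phospholipids, LPCAT2 (log2FC 1.70) and ACSL4 (1.43), an acyl-CoA ligase with a preference for arachidonate, were higher past both thresholds and none was lower. ACSL5 (-0.70) and ACSL3 (-0.36) had an adjusted p under 0.05 only.

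Other terminal synthases went both ways. AKR1C3, which makes prostaglandin F2 from prostaglandins D2 and H2, was higher in EA.hy926, with 415 to 454 counts against 18 to 33 and a log2FC of 4.26 (SE 0.10; edgeR adjusted p = 1.1e-19). AKR1B1, an aldose reductase that also forms prostaglandin F2, was the most abundant of the list, at 304 ± 9.73 against 134 ± 2.22 CPM (SD, n = 5 each), a log2FC of 1.18. The glutathione transferase gene GSTM2 (log2FC -3.08) and PTGDS, the lipocalin-type prostaglandin D synthase (-1.91), were lower in EA.hy926. In all, 4 of 6 tested genes passed both thresholds.

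The remaining receptors also differed in both directions, 1 higher and 2 lower in EA.hy926 of 3 tested. PTGFR, the prostaglandin F receptor, had 35, 58, 51, 51 and 58 counts in EA.hy926 against 0, 0, 1, 1 and 2 in HMEC-1. The ratio of pooled rates was 70.3, with an exact 95% interval of 27.1 to 260.0 (edgeR adjusted p = 6.1e-12). PTGER1, the EP1 receptor, had 6, 3, 4, 1 and 0 counts in EA.hy926 against 142, 204, 207, 183 and 203 in HMEC-1, a log2FC of -5.85 (SE 0.25; edgeR adjusted p = 3.3e-15). TBXA2R, the thromboxane receptor, stood at 1.88 ± 0.243 and 8.64 ± 0.440 CPM (SD, n = 5 each), with a log2FC of -2.19. Per length, TBXA2R was the most abundant of the 3 tested in EA.hy926 (0.666 RPKM), while in HMEC-1 the library ranges of PTGER1 (mean 3.30 RPKM) and TBXA2R (mean 3.06 RPKM) overlapped. PTGDR had 0 counts in every library, PTGER3 had at most 2 and PTGDR2 at most 17, and these 3 were not tested. Of the 4 receptors of prostaglandin E2, PTGER4 was therefore the one with the highest counts in both lines, and PTGER1 and PTGER2 had most or all of their counts in HMEC-1.

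Among the 5 tested genes of transport and inactivation, the mRNA of SLCO2A1 differed most. SLCO2A1, the prostaglandin transporter, which takes prostanoids up for breakdown, had 216, 155, 202, 144 and 163 counts in EA.hy926 against 7122, 8686, 9358, 8109 and 7492 in HMEC-1. This is 4.88 ± 0.903 against 203 ± 6.37 CPM (SD, n = 5 each), and SLCO2A1 was lower in EA.hy926 by a log2FC of -5.38 (SE 0.062; edgeR adjusted p = 4.3e-25). The efflux pump gene ABCC4, at 50.3 ± 1.82 and 51.8 ± 0.526 CPM, had a log2FC of -0.04 (SE 0.030) and did not pass (edgeR adjusted p = 0.21). HPGD, the dehydrogenase that begins prostaglandin inactivation, had 0 counts in all libraries. The reductase genes PTGR1 (log2FC -1.55) and PTGR2 (1.67) moved in opposite directions, PTGR2 with other annotated exons covering 35.0% of its own.

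**Figure D4:**
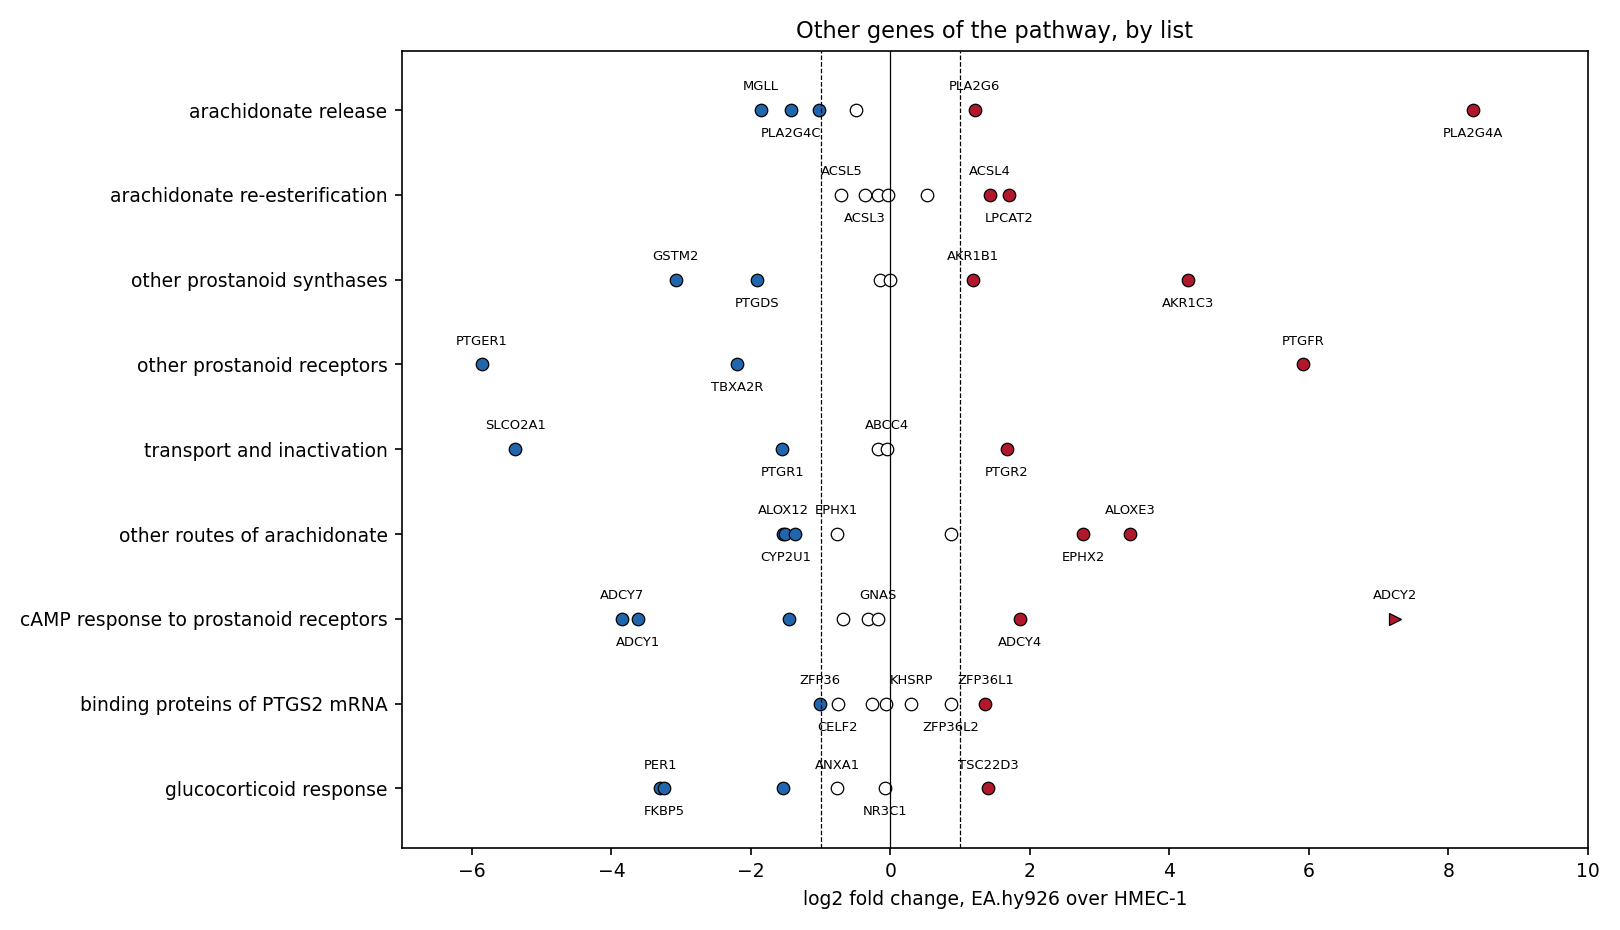
Log2 fold change of the tested genes of 9 pathway lists, 1 row per list, positive where EA.hy926 was higher. Filled points passed both thresholds (red higher, blue lower in EA.hy926), white points did not, and the triangle for ADCY2 is a bound; points lie on both sides of 0 in every list.

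Among the lipoxygenase, cytochrome P450 and epoxide hydrolase routes of arachidonate, 7 of 15 genes were tested. ALOXE3 (log2FC 3.44, 16 to 25 counts against 0 to 4) and EPHX2, the soluble epoxide hydrolase (2.76, 49 to 62 counts against 7 to 12), were higher in EA.hy926. ALOX12, a platelet-type lipoxygenase (-1.54), CYP2U1 (-1.51) and ALOX5AP (-1.37) were lower, and EPHX1 had a log2FC of -0.77. Per length, EPHX1 was the most abundant of these genes in HMEC-1 (16.7 RPKM) and LTA4H, leukotriene A4 hydrolase, in EA.hy926 (16.2 RPKM). Of the genes that link the receptors to cyclic AMP, 5 of 8 tested passed both thresholds. The adenylyl cyclase gene ADCY2 had 440 to 488 counts in EA.hy926 and none in HMEC-1, at least 151-fold higher than 3 counts in an HMEC-1 library would give (edgeR adjusted p = 3.3e-18), and ADCY4 was higher by 1.87. ADCY7 (-3.85), ADCY1 (-3.62) and ADCY9 (-1.46) were lower in EA.hy926. Exons of other genes cover 41.8% of ADCY7, and the value of ADCY1 moved to -4.26 without EA.hy926 replicate 1. GNAS, the stimulatory G protein subunit, differed little, at 827 ± 23.3 against 934 ± 15.8 CPM (SD, n = 5 each) and a log2FC of -0.17.

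PTGS2 mRNA is known to be short-lived, and proteins that bind its AU-rich elements shorten or extend its life. Of 7 such genes, all tested, ZFP36L1 was higher in EA.hy926 (log2FC 1.36) and ZFP36 lower (-1.01), both members of a family that promotes mRNA decay. The call of ZFP36 was lost with glmTreat, which tests against the fold threshold, and without EA.hy926 replicate 2, 4 or 5 or HMEC-1 replicate 2 (to -0.97). ZFP36L2 (0.87), CELF2 (-0.76) and KHSRP (0.30), the most abundant, stayed within the fold threshold. Glucocorticoids are known to lower PTGS2 and PTGES, and hydrocortisone was in the medium of HMEC-1. Of 6 genes of the glucocorticoid response, 4 passed both thresholds, 1 higher and 3 lower in EA.hy926. FKBP5 and PER1, targets induced by the glucocorticoid receptor, had a log2FC of -3.25 (SE 0.026) and -3.30 (SE 0.048), at 413 ± 2.57 and 63.4 ± 1.47 CPM in HMEC-1 and 43.5 ± 1.20 and 6.43 ± 0.596 CPM in EA.hy926 (SD, n = 5 each). DUSP1 was lower too (-1.55), while TSC22D3, also a target, was higher in EA.hy926 (1.40). ANXA1, the most abundant, had -0.77, and the receptor gene NR3C1 had -0.07 (SE 0.028; edgeR adjusted p = 0.022). FKBP5, PER1 and DUSP1 were high in the line with few PTGS2 counts and with the higher PTGES, and their part in either difference was not tested.

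The genes whose log2 CPM followed PTGER2 most closely over the 10 libraries were COL6A3 (Pearson r = 0.99998), ZNF567 (0.99996) and ZNF525 (0.99995). Each had 0 counts in all EA.hy926 libraries, as PTGER2 did, and 185 to 406 counts in the HMEC-1 libraries. In all, 2154 genes had r over 0.99 with PTGER2. The 10 points share the step between the lines, and the likeness is given as a description.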

How the data were processed

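Untreated EA.hy926 and HMEC-1 monolayers were sequenced, with 5 independent biological replicates each, and the line and replicate of each library came from the sample labels. The authors purified poly(A) RNA on oligo(dT) beads, sequenced it on an Illumina instrument, trimmed reads with fastp and aligned them to GRCh38 with HISAT2. The values they deposited are unnormalized, unfiltered read counts of each gene. The counter is HTSeq in the study's methods and featureCounts in the submitters' processing notes, and versions, annotation release and strand setting are not given in the sources used here, so reads of overlapping genes may be shared.

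Symbols, coordinates and exon lengths came from GENCODE 44, which matched 56434 of 60448 genes, and exon overlaps on either strand from bedtools 2.31.1. Low genes were removed by filterByExpr (at least 10 counts, 15 in total), library sizes were scaled by TMM factors (CPM refers to that scaled size), and the lines were compared by the quasi-likelihood test (glmQLFTest) of edgeR 4.0.16 under R 4.3.3, without covariates, with Benjamini-Hochberg adjustment over 16310 genes. Positive log2FC means higher in EA.hy926, and its standard error is the absolute log2FC over the square root of F. RPKM used the union of a gene's exons. Ratios of pooled rates carry conditional exact 95% intervals, and these and the floor of 3 counts cover counting error only. P-values set the difference between the lines against the spread between the cultures of each line.

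The genes, the pathway lists and the marker lists were chosen with earlier results of these data known. Named were all 10 genes, in each pathway list the 2 highest and 2 lowest by log2FC and the most abundant per length (RPKM averaged over the lines), in each marker list the most abundant gene with PECAM1, CDH5, VWF, EPCAM and CDH1, and the 3 genes most correlated with PTGER2 (log2 CPM with a prior count of 2). PTGER2 had the largest absolute fitted log2FC of the 10 genes, a value taken against 0 counts in EA.hy926 that is no bound. Genes of the lists with no or few counts were named as such. FAAH, CBR1, LTA4H, ALOX5AP, ADCY9, DUSP1, KDR, ERG, CLDN5, EMCN, ITGA2B, KRT8, CLDN4, CLDN7, KRT19, ACTA2, PDGFRB, COL1A1, COL3A1, PACERR and PTGES3P1 were named after their values were seen. A gene of the epithelial list is not reported here and does not enter its counts or sums.

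Alternatives were RLE factors, library totals, no filter, at least 10 counts in every library, DESeq2 1.42.0, limma-voom (limma 3.58.1), glmTreat against a log2FC of 1, a replicate block and each library left out in turn. In counts simulated for this comparison with 200 of 16050 genes changed 3-fold, edgeR called all 200 and 12 others. The changed genes were all well counted, and every gene was given the same dispersion. Far fewer genes were changed than the 85.8% with an adjusted p under 0.05 in the data. The simulation therefore does not cover genes with few counts in 1 line or so widespread a difference. Python 3.11.15, pandas 2.3.3, numpy 2.4.6, scipy 1.17.1 and matplotlib 3.10.9 were used for tables and figures.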

Additional observations from a re-analysis of the deposited data

Results flagged for a closer look

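In 12 gene and line combinations, 1 library of 5 stood further from its nearest neighbour than 0.71 of the line's range, Dixon's 95% limit, which chance alone passes in about 5% of groups. 155 combinations with unequal values were examined. Of the 10 prostanoid genes this concerned PTGS2, at 12.7 CPM in EA.hy926 replicate 1 against 9.57 to 10.4 CPM in the other 4 libraries. The same library stood apart for TSC22D3, a glucocorticoid target, at 141 CPM against 118 to 125 CPM. PTGDS, the prostaglandin D synthase, had 1.17 CPM in EA.hy926 replicate 4 against 0.797 to 0.862 CPM. EA.hy926 replicate 2 had 125 CPM of LTA4H against 118 to 119 CPM, EA.hy926 replicate 1 had 0.325 CPM of CLDN7 against 0.108 to 0.130 CPM, and EA.hy926 replicate 4 held the only EMCN counts of its line, 0.0520 CPM. In HMEC-1, replicate 1 had 1.08 CPM of COL3A1 against 0.883 to 0.931 CPM, and 4.42 CPM of ADCY4 against 5.44 to 5.76 CPM. HMEC-1 replicate 3 had 50.8 CPM of ABCC4 against 51.9 to 52.0 CPM, and 1.11 CPM of CLDN5 against 1.47 to 1.59 CPM. HMEC-1 replicate 2 was the highest for EPCAM, at 0.539 CPM against 0.105 to 0.217 CPM, and held the only CDH1 count of its line, 0.0245 CPM against 0.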

How the results depend on the processing

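No gene of the lists that passed both thresholds changed direction under the alternatives run. The 7 prostanoid genes past both thresholds stayed 7 with RLE factors, DESeq2, limma-voom, no filter and each library left out, and became 6 with library totals and 6 with glmTreat, in both cases without PTGIS. Requiring at least 10 counts in every library removes genes with few or no counts in 1 line, and left 3 past both thresholds and 6 with an adjusted p under 0.05, of 6 tested. Library totals moved all log2FC by a median of -0.13, which turned the balance of calls, so that 2809 genes were higher and 3085 lower past both thresholds in place of 3110 and 2674. The 33 pathway genes past both thresholds became 38 without a filter, 23 with at least 10 counts in every library, 29 with glmTreat and 31 to 33 with a library left out. The sign of CBR1 and KDR, which did not pass (log2FC 0.00056 and -0.04), changed in some of these fits. Over all genes, 5784 passed both thresholds, 9312 without a filter and 3255 with at least 10 counts in every library. ZFP36 fell below the fold threshold without EA.hy926 replicate 2, 4 or 5 or HMEC-1 replicate 2 (log2FC down to -0.97), as did FAAH without EA.hy926 replicate 1 or HMEC-1 replicate 2 or 4 (down to -0.87), and ERG without HMEC-1 replicate 1, 3, 4 or 5, without a filter (both down to 0.99) and with library totals (0.87). With glmTreat PLA2G6, FAAH, ALOX5AP, ZFP36 and ERG no longer passed. ITGA2B passed the fold threshold with library totals (-1.10) and without EA.hy926 replicate 4 or HMEC-1 replicate 1, 2 or 4 (up to -1.09). KRT7 passed it without EA.hy926 replicate 1, 2 or 3 or HMEC-1 replicate 2 (log2FC up to 1.01). Without HMEC-1 replicate 3, the log2FC of PTGS2 was 9.35 and that of PLA2G4A 9.13, without EA.hy926 replicate 5 that of CD14 was -4.11, without EA.hy926 replicate 4 EMCN had 0 counts in EA.hy926 and its fitted value moved to -12.45, which is no bound, and without EA.hy926 replicate 1 the log2FC of ADCY1 was -4.26. With the replicate number as a block, 7 prostanoid genes passed both thresholds, 10 had an adjusted p under 0.05 and 33 pathway genes passed, and no call changed. Same-numbered libraries did not deviate together (r from -0.025 to 0.038). The labels do not say what the number stands for, and these values cannot decide whether same-numbered libraries were handled together. At this depth, levels under about 0.0904 CPM could not be resolved, which covers PTGS2 in HMEC-1 and PTGER2 in EA.hy926.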
